A study of Mus musculus with 6 samples.

Results

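The *Hox* genes measured in GFP+ cells of the mouse dorsal spinal cord are described here by cluster (a, b, c and d) and by paralog number. A gene was included where a transcript cluster, the set of array probes for one locus, named that *Hox* gene and no other. This gave 32 genes among 23332 transcript clusters, of which 14996 name 1 gene. Each of the 32 genes had a single such transcript cluster. There were 8 genes of the *Hoxa* cluster, 10 of *Hoxb*, 8 of *Hoxc* and 6 of *Hoxd*. Other *Hox* genes of the mouse were not analysed here. Transcript clusters naming both *Hoxd4* and *Hoxd3*, or both *Hoxa3* and *Hoxaas3*, were left out because they do not name 1 gene.

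Dorsal spinal cords were taken from *Wnt1-cre*;*Rosa26mTmG* embryos of 3 stages (E10.5, E11.5, then E12.5), and RNA came from sorted GFP+ cells. All 3 groups carried both alleles. The *Wnt1* promoter drives Cre in the dorsal neural tube, from which the neural crest also arises, and recombination turns the membrane-bound tdTomato reporter of these cells and their progeny into GFP. Each stage had 2 Affymetrix Mouse Exon 1.0 ST arrays, 6 in all, and the study asked which genes change with stage. The sources used here give neither the axial levels dissected nor whether 2 arrays of a stage had separate embryos, so the p-values reflect only the spread between the samples at hand, and this may be technical.

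*Hox* genes encode homeodomain transcription factors that give cells their position along the head-to-tail axis. Their order in each cluster follows the order in which they are used along the axis and in time: low paralog numbers act early and in the hindbrain, and high paralog numbers act later and toward the tail. In the spinal cord they set the identity of neurons at each level, and many of them bind DNA together with cofactors of the Pbx and Meis families.

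The arrays were not alike. The first E10.5 replicate was unlike the rest: its correlation with the other 5 arrays averaged 0.890, where each of the others averaged 0.948 to 0.955. Signals are given on the log2 scale as deposited, and array medians lay between 5.33 and 5.73. The limit of detection, 5.82, was the 95th percentile over 852 transcript clusters, by their mean signal, of olfactory, vomeronasal and taste receptors and keratin-associated proteins, genes with no known use in this tissue. On single arrays the same percentile was 6.54, 6.14 and 6.53 for replicate 1 and 5.34, 5.33 and 5.35 for replicate 2, in the order of the stages. The replicate 1 arrays had the higher background at every stage. Of the markers of dorsal neural tube 8 of 11 measured were above the limit, and of neurons 6 of 6, but *Lmx1b*, *Tlx3* and *Lbx1*, which mark dorsal interneurons, were not. Other cell types checked were mesenchyme of limb and trunk (1 of 11 above the limit, *Col1a1*), motor neurons (1 of 7, *Foxp1*) and tail bud (0 of 6). For hindbrain and midbrain 2 of 5 were above it (*Gbx2* and *Irx2*). For neural crest with dorsal root ganglion 3 of 5 were above it (*Sox10*, *Isl1* and *Neurog1*), while *Foxd3* and *Erbb3* were not.

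*Hoxc10*, *Hoxd10*, *Hoxd9* and *Hoxa9* had the largest stage differences, so the 250 bases upstream of the start site are shown for the 3 of them in the RefSeq promoter table, beside *Hoxb1*, the anterior gene with the largest difference in the other direction. Coordinates are on GRCm38.p6 and each sequence runs 5′ to 3′ on the gene's strand. Capitals mark a match, on either strand, to AGGTCA, the half-site of retinoic acid receptors, or to TGAT followed by any 2 bases and AT, a site at which PBX and HOX proteins bind together.
Hoxd10, chr2:74691641-74691890, plus strand: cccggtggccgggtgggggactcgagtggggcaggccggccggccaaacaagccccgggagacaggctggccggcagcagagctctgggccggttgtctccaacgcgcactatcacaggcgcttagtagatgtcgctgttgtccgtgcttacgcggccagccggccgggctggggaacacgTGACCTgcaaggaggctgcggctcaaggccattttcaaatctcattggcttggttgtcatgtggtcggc
Hoxd9, chr2:74697513-74697762, plus strand: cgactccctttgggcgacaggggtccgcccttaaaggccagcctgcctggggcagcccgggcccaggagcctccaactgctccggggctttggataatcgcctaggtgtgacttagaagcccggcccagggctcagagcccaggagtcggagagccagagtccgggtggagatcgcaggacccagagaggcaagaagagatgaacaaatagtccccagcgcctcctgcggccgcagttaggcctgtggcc
Hoxa9, chr6:52227371-52227620, minus strand: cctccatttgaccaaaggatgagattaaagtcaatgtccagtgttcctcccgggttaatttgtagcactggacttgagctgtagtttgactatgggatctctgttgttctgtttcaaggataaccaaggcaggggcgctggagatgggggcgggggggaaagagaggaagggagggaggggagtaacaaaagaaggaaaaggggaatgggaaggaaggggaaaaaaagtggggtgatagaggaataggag
Hoxb1, chr11:96365508-96365757, plus strand: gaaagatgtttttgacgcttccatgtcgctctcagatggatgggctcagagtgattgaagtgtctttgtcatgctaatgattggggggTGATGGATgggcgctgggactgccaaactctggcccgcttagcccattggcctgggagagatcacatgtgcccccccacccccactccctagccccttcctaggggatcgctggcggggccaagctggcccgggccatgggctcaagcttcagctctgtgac
The match in *Hoxd10* was to the half-site on the minus strand, with its first base 69 bases upstream of the start site, and the match in *Hoxb1* was to the PBX-HOX site on the plus strand, 162 bases upstream. The windows of *Hoxd9* and *Hoxa9* held neither.

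The table held 19 promoters for 17 of the 32 genes. The half-site was found in 4 of them (*Hoxb4*, *Hoxc4*, *Hoxd3* and *Hoxd10*), beside 14.0% of all 32851 promoters. The PBX-HOX site was also found in 4 (*Hoxa2*, *Hoxb1*, *Hoxb8* and 1 of the 2 promoters of *Hoxd11*), beside 7.68% of all promoters. A direct repeat of the half-site with a spacer of 5 bases was found in 0 of 19, beside 0.00913% of all promoters. None of the 19 promoters held both a half-site match and a PBX-HOX match. The median GC content was 59.2% in the *Hox* promoters, with a range of 44.4 to 74.4%, and 52.4% over all promoters. The median number of CpG dinucleotides was 13 in the *Hox* promoters and 6 over all.

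Over all 6 arrays, the mean signal was above the limit for 24 of 32 genes. These were 9 of 9 genes of paralog groups 1 to 4, 9 of 10 of groups 5 to 8 and 6 of 13 of groups 9 to 13. Fewer, 15 of 32, were above the background percentile of the array on all 6 arrays. These were 6 of 9, 6 of 10 and 3 of 13 in the same ranges. After the values were seen the last range was split further, into groups 9 and 10, with 6 of 7 genes above the limit, and groups 11 to 13, with 0 of 6. The genes under the limit were *Hoxc5* and *Hoxc10*, and *Hoxa11*, *Hoxd11*, *Hoxc12*, *Hoxb13*, *Hoxc13* and *Hoxd13*. These last 6 genes, which pattern the tail end of the axis and the limbs, were below the background percentile of the array on each of the 6 arrays. *Hoxd9* lay just above the limit at 5.82, and its place there is not firm. By cluster, 7 of 8 *Hoxa*, 9 of 10 *Hoxb*, 4 of 8 *Hoxc* and 4 of 6 *Hoxd* genes were above the limit. With the 90th and 99th percentiles as the limit, 26 and 17 genes were above it.

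**Figure D1:**
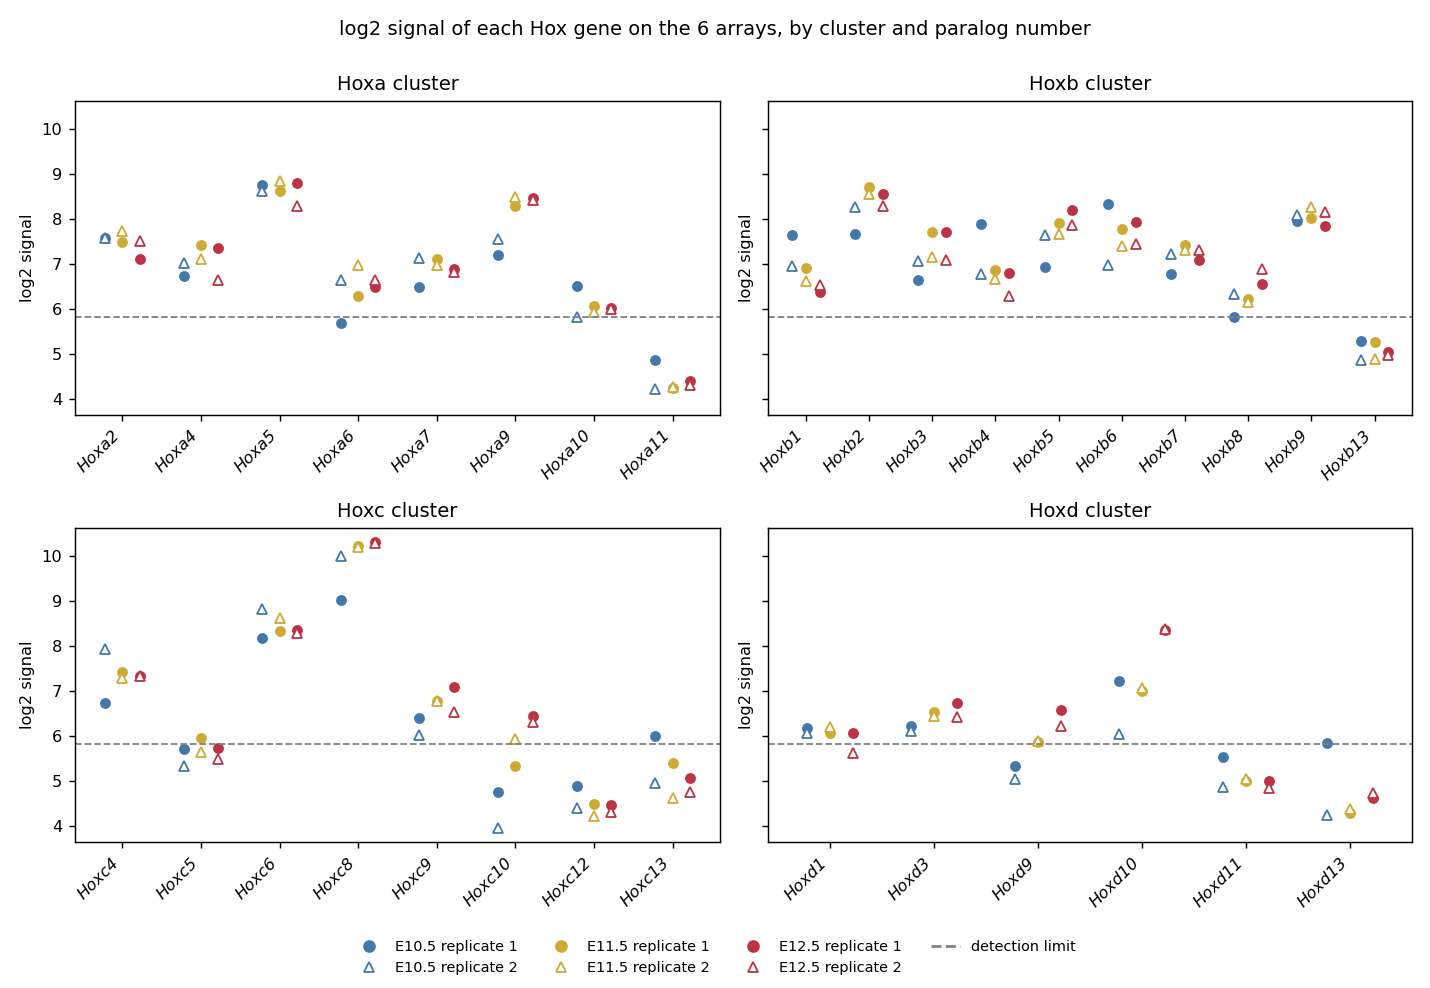
log2 signal (y axis) of each of the 32 Hox genes (x axis, by paralog number) on the 6 arrays, with 1 panel per cluster, filled circles for replicate 1 and open triangles for replicate 2. The dashed line is the detection limit of 5.82, and every point of the groups 11 to 13 lies below the line except Hoxc13 and Hoxd13 on the E10.5 replicate 1 array.

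In the comparison of E12.5 with E10.5, the median of the log2 differences between stage means was -0.068 over the 13 genes of paralog groups 9 to 13, 0.15 over groups 5 to 8 and 0.01 over groups 1 to 4. Over all 32 genes it was 0.04, and over all transcript clusters -0.10. The range 9 to 13 held both the 4 largest differences upward (*Hoxc10*, *Hoxd10*, *Hoxd9* and *Hoxa9*) and 8 differences below 0. Split after these values were seen, it gave a median of 1.07 over the 7 genes of groups 9 and 10 and -0.26 over the 6 of groups 11 to 13, which are a description of the genes already seen and no test of a boundary between groups 10 and 11. Against the E10.5 replicate 2 array alone the medians were 0.20 for groups 9 to 13, 0.13 for groups 5 to 8, -0.21 for groups 1 to 4, 0.14 for all 32 genes and 0.06 for all transcript clusters. The parts of the split were then 0.90 for groups 9 and 10 and 0.10 for groups 11 to 13. Centring each array on its median moved the difference over all transcript clusters to 0.03, and quantile normalization moved it to -0.02.

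With limma, a moderated linear model fitted over all transcript clusters, 0 of 32 *Hox* genes passed an adjusted p of 0.05 between E12.5 and E10.5, as did 0 of 23332 transcript clusters (0%). The smallest adjusted p of a *Hox* gene was 0.895. At an unadjusted p under 0.05 in limma there were 5 *Hox* genes, 4 higher at E12.5 and 1 lower, beside 928 of all transcript clusters (3.98%). Without moderation 4 *Hox* genes were under this p, beside 973 of all transcript clusters, and 0 passed the adjustment. Both E12.5 arrays lay above both E10.5 arrays for 11 of 32 *Hox* genes (9.35% of all transcript clusters, and 17.0% of the 6852 that name 1 gene and were above the detection limit), and below both for 3 (14.0% of all, and 13.5% of those 6852). Against the E10.5 replicate 2 array alone, both E12.5 arrays were higher for 17 *Hox* genes (33.9% of all transcript clusters) and lower for 6 (29.7%). The 11 genes were *Hoxa9*, *Hoxb2*, *Hoxb3*, *Hoxb5*, *Hoxb8*, *Hoxc8*, *Hoxc9*, *Hoxc10*, *Hoxd3*, *Hoxd9* and *Hoxd10*, and the 3 genes were *Hoxa2*, *Hoxb1* and *Hoxd1*. In RNA from bulk samples, fewer cells of a type and less RNA per cell cannot be told apart.

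*Hoxc10*, which helps set lumbar identity in the spinal cord, had log2 signals of 4.76 and 3.95 on the E10.5 arrays, 5.33 and 5.92 on the E11.5 arrays and 6.43 and 6.32 on the E12.5 arrays. The stages did not overlap, and the signal was higher at each later stage. Its E12.5 minus E10.5 difference was 2.02 (SE 0.39, unadjusted p = 0.00122 and adjusted p = 0.895 in limma). The difference was 2.42 without the E10.5 replicate 1 array and 1.61 without the E10.5 replicate 2 array. Both E10.5 arrays were below their background percentile, and of the E12.5 arrays only replicate 2 was above its own. The difference is one of deposited signals, and no fold is given.

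*Hoxd10*, its paralog in the *Hoxd* cluster and also a gene of the lumbar cord, had signals of 7.23 and 6.04 on the E10.5 arrays, 7.00 and 7.05 on the E11.5 arrays and 8.35 and 8.38 on the E12.5 arrays. All 6 were above the background of their array, and both E12.5 values lay above the other 4 while the E11.5 values lay between the E10.5 values. The E12.5 minus E10.5 difference was 1.73 (SE 0.42, unadjusted p = 0.00453 and adjusted p = 0.991 in limma), or 3.33-fold. It was 2.33 and 1.14 when E10.5 replicate 1 and E10.5 replicate 2 were left out in turn. The third gene of the group, *Hoxa10*, had a difference of -0.14, and 0.20 when E10.5 replicate 1 was left out.

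*Hoxd9*, a gene used from the thoracic cord toward the tail, had signals of 5.32 and 5.03 on the E10.5 arrays, 5.86 and 5.88 on the E11.5 arrays and 6.58 and 6.22 on the E12.5 arrays. Like *Hoxc10*, it was higher at each later stage with no overlap. The E12.5 minus E10.5 difference was 1.22 (SE 0.31, unadjusted p = 0.00517 and adjusted p = 0.991 in limma), and 1.37 without the E10.5 replicate 1 array. Both E10.5 signals were under the background percentile of their array. With these percentiles in place of the signals, as a lower bound, the E12.5 mean was 1.38-fold higher. That bound rested mainly on replicate 2. The E12.5 replicate 1 signal of 6.58 was close to the percentiles of the replicate 1 arrays (6.54 at E10.5 and 6.53 at E12.5). The bound was not tested.

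*Hoxa9*, its paralog in the *Hoxa* cluster, had signals of 7.19 and 7.54 on the E10.5 arrays, 8.27 and 8.48 on the E11.5 arrays and 8.46 and 8.42 on the E12.5 arrays. All 6 were above background, the E10.5 arrays were below the other 4, and E12.5 overlapped E11.5. The difference was 1.07 (SE 0.30, unadjusted p = 0.00880 and adjusted p = 0.991 in limma), or 2.11-fold, between E12.5 and E10.5, and 0.90 without the E10.5 replicate 1 array. Of the other paralog 9 genes, *Hoxc9*, which sets thoracic identity of motor neurons, had a difference of 0.60 (0.33 when E12.5 replicate 1 was left out), and *Hoxb9* of -0.03.

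**Figure D2:**
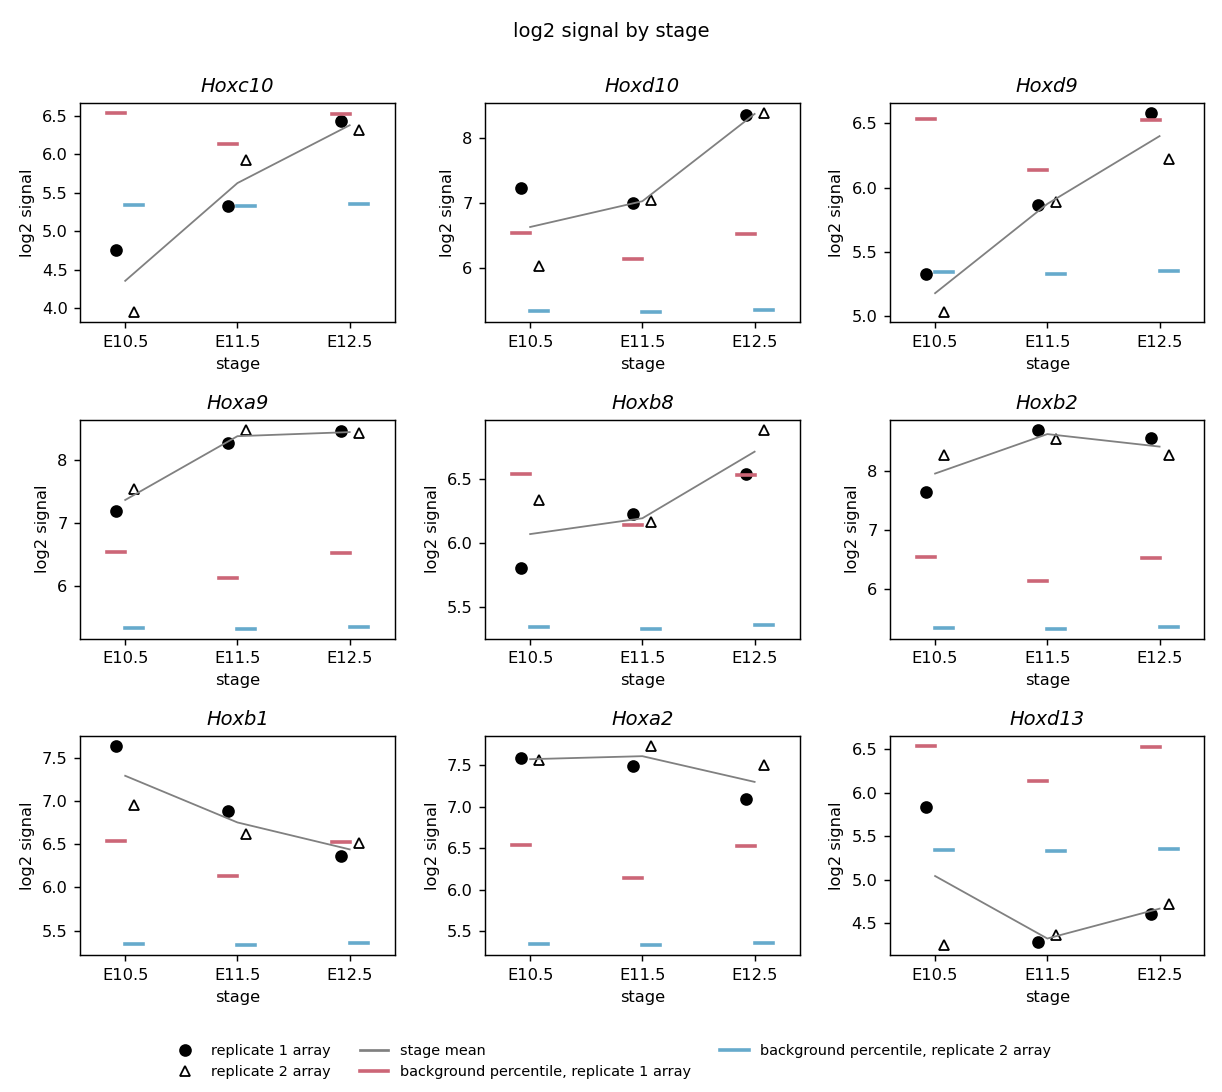
log2 signal (y axis, its range set per panel) at the 3 stages (x axis) for the 9 Hox genes whose array values are given, with circles for replicate 1, triangles for replicate 2, a line through the stage means and short bars for the background percentile of each array (red for replicate 1, blue for replicate 2). Hoxc10 and Hoxd9 lie at or under the bars at E10.5, and Hoxd10 and Hoxa9 lie above them at E12.5.

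Among genes of the anterior groups, *Hoxb1* was the gene with an unadjusted p under 0.05. *Hoxb1*, which gives a hindbrain segment its identity, had signals of 7.64 and 6.95 on the E10.5 arrays, 6.89 and 6.62 on the E11.5 arrays and 6.37 and 6.52 on the E12.5 arrays. The stages did not overlap and each later stage was lower. The E12.5 minus E10.5 difference was -0.85 (SE 0.34, unadjusted p = 0.0421 and adjusted p = 0.991 in limma). Of the E12.5 arrays, replicate 1 was below its background percentile, so no fold is given. Without the E10.5 replicate 1 array the difference was -0.51 with an unadjusted p of 0.147 in limma. *Hoxb4*, a gene of the hindbrain and neck levels, had a difference of -0.78 with overlapping stages, and -0.23 without that array. *Hoxd1*, also a paralog 1 gene, had a difference of -0.28, which was -0.061 when E12.5 replicate 2 was left out. It was above background on 1 of the 2 arrays at E12.5 and likewise at E10.5.

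*Hoxb2*, which patterns the hindbrain, had signals of 7.65 and 8.27 on the E10.5 arrays, 8.71 and 8.55 on the E11.5 arrays and 8.56 and 8.28 on the E12.5 arrays. The E12.5 arrays were above the E10.5 arrays by as little as 0.01, and the difference of 0.46 was 0.15 without the E10.5 replicate 1 array. *Hoxa2*, its paralog and a regulator of cranial neural crest, had signals of 7.58 and 7.56 on the E10.5 arrays, 7.49 and 7.73 on the E11.5 arrays and 7.10 and 7.50 on the E12.5 arrays. Its difference of -0.27 was smaller than its SE of 0.31, and was -0.073 when E12.5 replicate 1 was left out. *Hoxb3* and *Hoxd3* were higher at E12.5 by 0.55 and 0.41 on the log2 scale, and by 0.23 and 0.25 when E12.5 replicate 1 was left out. *Hoxa4* and *Hoxc4* had differences of 0.12 and 0.01, 2 values that were below 0 without the E10.5 replicate 1 array.

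In the middle groups, which cover the neck, forelimb and upper trunk, *Hoxb8* had the largest E12.5 minus E11.5 difference of the *Hoxb* cluster. Loss of *Hoxb8* in mice alters the dorsal horn. Its signals were 5.80 and 6.33 on the E10.5 arrays, 6.22 and 6.16 on the E11.5 arrays and 6.54 and 6.88 on the E12.5 arrays. The signal was under the background percentile of 6.54 on E10.5 replicate 1 and barely above that of 6.53 on E12.5 replicate 1. The E12.5 arrays were above the other 4, the E12.5 minus E10.5 difference was 0.64 (SE 0.33, unadjusted p = 0.0894 in limma), and it was 0.38 with E10.5 replicate 1 left out. *Hoxc8*, a gene of brachial motor neurons, had a difference of 0.79, and *Hoxb5* of 0.75, values that were 0.30 and 0.39 without that array. *Hoxb6*, *Hoxb7*, *Hoxa6*, *Hoxa7*, *Hoxa5*, *Hoxc5* and *Hoxc6* had differences between -0.18 and 0.41 with overlapping stages.

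Of the genes under background, *Hoxd13*, which patterns the digits and the tail end of the body, had signals of 5.84 and 4.25 on the E10.5 arrays, 4.28 and 4.37 on the E11.5 arrays and 4.61 and 4.73 on the E12.5 arrays. The E10.5 replicate 1 value stood above the other 5, and the E12.5 minus E10.5 difference of -0.38 turned to 0.42 without it. The 6 genes of groups 11 to 13 all had differences below 0 (-0.57 to -0.07) and 0 had stages that did not overlap. Without the E10.5 replicate 1 array 4 of the 6 were above 0. All 8 *Hox* genes under the detection limit were higher on E10.5 replicate 1 than on replicate 2, by a median of 0.66, while of the 24 genes above it 11 were higher and 13 lower. Since these signals are at background, no fold is given for groups 11 to 13.

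**Figure D3:**
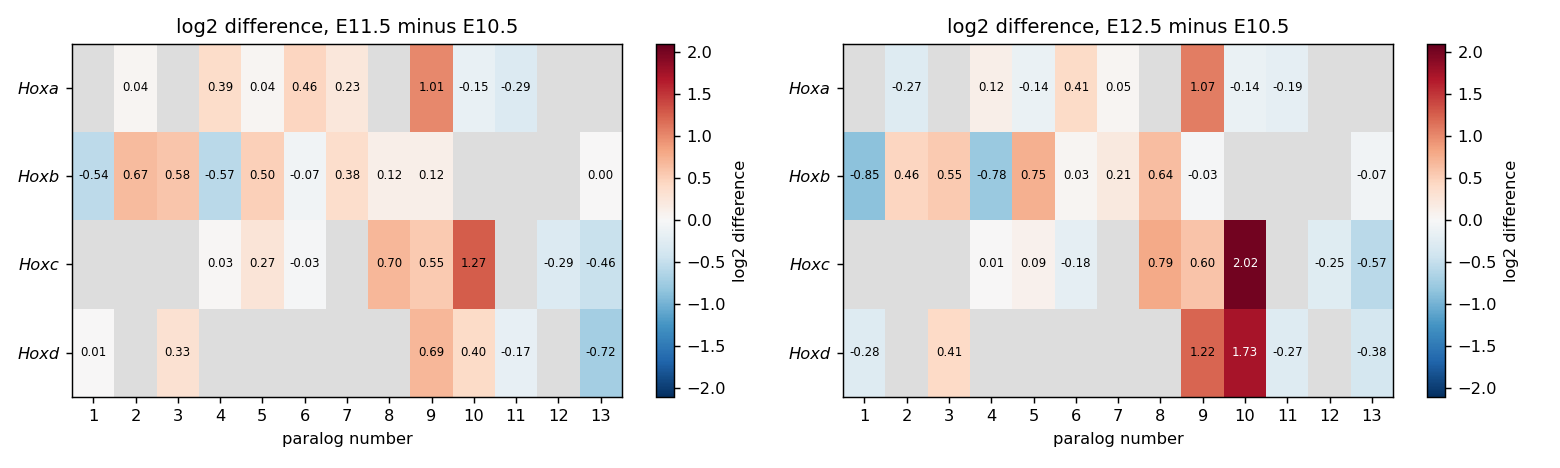
log2 difference between stage means for each Hox gene, by cluster (rows) and paralog number (columns), for E11.5 minus E10.5 (left) and E12.5 minus E10.5 (right). Red is higher and blue lower at the later stage, grey cells are genes not analysed here or positions with no gene, and the darkest cells on the right are Hoxc10 at 2.02 and Hoxd10 at 1.73.

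By cluster, the median E12.5 minus E10.5 difference was -0.05 for *Hoxa*, 0.12 for *Hoxb*, 0.05 for *Hoxc* and 0.07 for *Hoxd*, and -0.04, 0.15, 0.13 and 0.45 for the same clusters when E10.5 replicate 1 was left out. The range within each cluster was wider than the range of these medians, with -0.27 to 1.07 for *Hoxa*, -0.85 to 0.75 for *Hoxb*, -0.57 to 2.02 for *Hoxc* and -0.38 to 1.73 for *Hoxd*. Over all 32 genes, which share the same arrays, the E12.5 minus E10.5 difference had a Pearson's r of 0.15 and a Spearman's rho of 0.03 with paralog number. Restricted after the values were seen to the 26 genes of groups 1 to 10, r was 0.61 and rho 0.55. For E12.5 minus E11.5 over all 32 genes, r was 0.43 and rho 0.56. For E11.5 minus E10.5 over all 32, r was -0.12 and rho -0.17. These correlations were not tested.

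**Figure D4:**
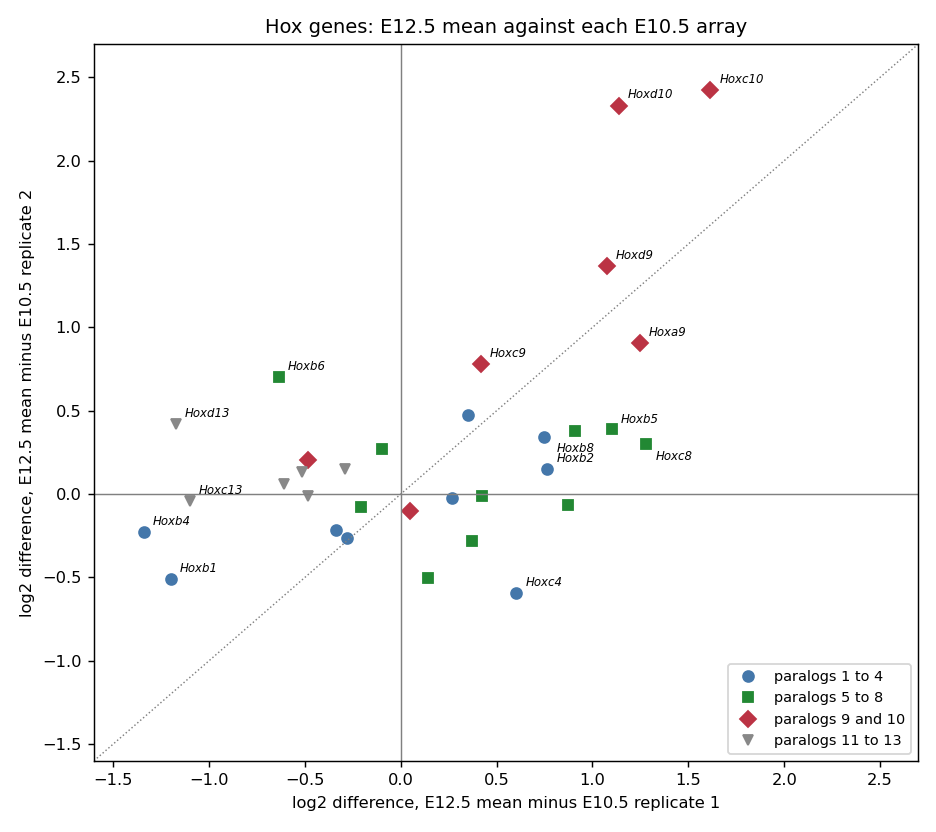
log2 difference of the E12.5 mean from the E10.5 replicate 1 array (x axis) and from the E10.5 replicate 2 array (y axis) for the 32 Hox genes, with paralog groups by colour and shape and a dotted line of equal values. Hoxc10, Hoxd10, Hoxd9 and Hoxa9 are above 0.90 on both axes, and the genes of groups 11 to 13 lie left of 0 with y values between -0.04 and 0.42.

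In the comparison of E11.5 with E10.5, which shares its E10.5 arrays with the comparison above, 0 of 32 *Hox* genes and 0 of 23332 transcript clusters (0%) passed an adjusted p of 0.05 in limma. At an unadjusted p under 0.05 there were 2 *Hox* genes, both higher at E11.5, beside 465 transcript clusters (1.99%). These were *Hoxa9*, with a difference of 1.01 (SE 0.30, unadjusted p = 0.0118 in limma), and *Hoxc10*, with 1.27 (SE 0.39, unadjusted p = 0.0135 in limma). Without the E10.5 replicate 1 array the differences were 0.84 and 1.67. The lowest over the fits that left out 1 array were 0.84 and 0.86. For *Hoxc10* both E10.5 signals and the E11.5 replicate 1 signal were below the background percentile of their array. *Hoxd9* was higher by 0.69 and *Hoxb2* by 0.67 (0.36 when E10.5 replicate 1 was left out), while *Hoxd10* had a difference of 0.40 that was -0.20 without the E10.5 replicate 2 array. Both E11.5 arrays were above both E10.5 arrays for 11 *Hox* genes and below both for 1, *Hoxb1*. Of all transcript clusters 9.48% were above and 9.90% below. Of the 6852 that name 1 gene and were above the detection limit, 14.8% were above and 7.49% below. The median difference was 0.0037 over groups 9 to 13 (0.55 over groups 9 and 10 and -0.29 over groups 11 to 13), 0.25 over groups 5 to 8 and 0.04 over groups 1 to 4, beside -0.07 over all transcript clusters. When E10.5 replicate 1 was left out it was 0.19 over groups 9 to 13 (0.84 over groups 9 and 10 and 0.07 over groups 11 to 13), 0.13 over groups 5 to 8 and 0.07 over groups 1 to 4, beside 0.07 over all transcript clusters.

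Between E12.5 and E11.5, 0 of 32 *Hox* genes and 0 of 23332 transcript clusters (0%) passed an adjusted p of 0.05 in limma. A single *Hox* gene, *Hoxd10*, had an unadjusted p under 0.05, beside 212 transcript clusters (0.909%). It was higher at E12.5 by 1.34 (SE 0.42, unadjusted p = 0.0158 in limma), or 2.53-fold, with means of 8.37 ± 0.02 at E12.5 and 7.03 ± 0.03 at E11.5 (SD, n = 2 each). *Hoxc10* was higher at E12.5 by 0.75 (0.45 when E11.5 replicate 1 was left out), *Hoxd9* by 0.53 (0.35 when E12.5 replicate 1 was left out) and *Hoxb8* by 0.52, while *Hoxa9* differed by 0.06. Both E12.5 arrays were above both E11.5 arrays for 7 *Hox* genes and below both for 5. Of all transcript clusters 8.46% were above and 13.4% below. Of the 6852 that name 1 gene and were above the detection limit, 11.3% were above and 14.8% below. The 7 were *Hoxa11*, *Hoxb8*, *Hoxc8*, *Hoxc10*, *Hoxd9*, *Hoxd10* and *Hoxd13*. The 5 were *Hoxa7*, *Hoxb1*, *Hoxb7*, *Hoxd1* and *Hoxd11*. Of these genes, *Hoxa11*, *Hoxd13* and *Hoxd11* were below the background percentile on every array. The median E12.5 minus E11.5 difference was -0.21 over groups 1 to 4, -0.10 over groups 5 to 8 and 0.05 over groups 9 to 13. Over all transcript clusters it was -0.02. Over any stage difference, limma's F test gave 0 *Hox* genes at an adjusted p of 0.05 and 4 at an unadjusted p under 0.05 (*Hoxc10*, *Hoxd10*, *Hoxd9* and *Hoxa9*), beside 526 transcript clusters (2.25%).

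The genes that work with or on *Hox* genes were taken from lists. No member of any of these lists passed an adjusted p of 0.05 in limma. TALE cofactors, the homeodomain partners of Hox proteins, had 9 of 11 genes measured, all above the detection limit. Their median E12.5 minus E10.5 difference was 0.32 (0.23 when E10.5 replicate 1 was left out). The E12.5 arrays were above the E10.5 arrays for 4 of the 9 (*Meis1*, *Pbx3*, *Meis2* and *Pknox2*) and below for 1 (*Tgif2*). Of all transcript clusters 9.35% were above and 14.0% below. Of those that name 1 gene and were above the detection limit, 17.0% were above and 13.5% below. *Meis1*, a partner that helps Hox proteins bind DNA, had signals of 7.56 and 9.20 on the E10.5 arrays, 9.44 and 9.51 on the E11.5 arrays and 9.41 and 9.44 on the E12.5 arrays. Its difference of 1.05 rested on the E10.5 replicate 1 array, and was 0.23 without it.

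Axial regulators of *Hox* genes, the Cdx factors and the retinoic acid pathway among them, had 10 of 14 genes measured and 4 above the limit, with a median difference of -0.32 (-0.11 when E10.5 replicate 1 was left out). *Aldh1a2*, which makes retinoic acid, had signals of 5.76 and 7.65 on the E10.5 arrays, 6.62 and 6.57 on the E11.5 arrays and 5.05 and 5.48 on the E12.5 arrays. Its E12.5 minus E10.5 difference was -1.43 (unadjusted p = 0.0445 in limma), and -2.38 when E10.5 replicate 1 was left out. The difference rested mainly on the E10.5 replicate 2 array, where the signal was 7.65 against 5.76 on replicate 1. On the replicate 1 arrays of E10.5 and E12.5 the *Aldh1a2* signal was under their background percentiles of 6.54 and 6.53. On E12.5 replicate 2 it was just above the percentile of 5.35, so no fold is given. It was the 1 gene of the list with an unadjusted p under 0.05. Chromatin regulators of *Hox* genes, mostly Polycomb proteins, had 17 of 21 genes measured, 15 above the limit and 0 with an unadjusted p under 0.05, with a median difference of -0.07 (-0.14 when E10.5 replicate 1 was left out). The smallest p among them was that of *Eed*, a core subunit of Polycomb repressive complex, with a difference of -0.60.

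The genes next to the *Hox* clusters had 12 of 14 measured and 7 above the limit, with a median difference of -0.20 (-0.29 when E10.5 replicate 1 was left out). *Evx1* and *Evx2*, homeobox genes at the tail-side ends of the *Hoxa* and *Hoxd* clusters, had differences of -0.21 and -0.26 with overlapping stages, and of 0.09 and 0.03 when E10.5 replicate 1 was left out. *Ttll6*, near the *Hoxb* cluster, was the 1 gene with an unadjusted p under 0.05, lower at E12.5 by 0.89 on the log2 scale, with signals under the limit. Differences of the 12 neighbours lay between -0.89 and 0.47.

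No marker of the sorted cells passed an adjusted p of 0.05 in limma between any 2 stages. For neurons the median E12.5 minus E10.5 difference was 0.63 (0.45 when E10.5 replicate 1 was left out), and the E12.5 arrays were above the E10.5 arrays for 5 of 6 genes, beside 9.35% of all transcript clusters and 17.0% of those that name 1 gene and were above the detection limit. For dorsal neural tube it was -0.20 (0.21 without that array). The E12.5 arrays were above the E10.5 arrays for 3 of 11 genes and below for 4, beside 9.35% and 14.0% of all transcript clusters. The 3 were *Pax2*, a gene of inhibitory interneurons (1.32), *Zic1* (0.57) and *Pax3* (0.49). The 4 were *Olig3*, a gene of dorsal progenitors (-1.15), *Lhx9* (-0.72), *Msx1* (-0.64) and *Lhx2* (-0.60). The mean signal of the 6 neuron genes was 8.85 and 9.28 on the E10.5 arrays, 9.50 and 9.45 on the E11.5 arrays and 9.54 and 9.91 on the E12.5 arrays. The median difference was -0.21 for mesenchyme of limb and trunk, -0.39 for tail bud, -0.29 for motor neurons, -0.18 for hindbrain and midbrain and -0.26 for neural crest with dorsal root ganglion. When E10.5 replicate 1 was left out these were 0.22, -0.03, 0.22, -0.04 and 0.03. The part of these cell types in the *Hox* differences was not tested.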

How the data were processed

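For each of 6 arrays the deposited table holds log2 signals of 23332 transcript clusters. Per the submitters' processing notes, the authors used oligo (version not stated) and the mm9 assembly to make them. Values were used as deposited, without filtering. Since they are array signals, no read depth applies, and precision is limited by how few arrays there are. Gene names came from the platform's table, in which 14996 clusters have 1 symbol, 1019 have several and 7317 are not listed.

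A limma model (version 3.58.1, R 4.3.3) with a mean for each stage was fitted to all 6 arrays. Its p-values were adjusted by Benjamini-Hochberg across the 23332 clusters, with 0.05 as the threshold. The 2 arrays of a stage give an exact permutation test no p below 0.333, so none was used. Levels were not compared between genes, only with the background. The limma fit was tried on simulated data with noise independent between arrays. Differences between the arrays of a stage correlated between stages here, so that trial does not show how well these p-values hold.

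The *Hox* genes and gene lists were chosen with earlier results of these data known. Array values were given for genes that were called, that differed by at least 1 on the log2 scale with no overlap, or that had the smallest p or the largest difference between other stages in their cluster, and of each list up to 4 genes with the smallest p could be named. The other *Hox* genes are given by their differences. *Tgif2*, *Evx1*, *Evx2* and the cell type markers were named after their values were seen. Promoters came from RefSeq (GRCm38.p6), searched on both strands. A comparison of Hox protein sequences was not made. Alternatives were a replicate block, quantile normalization, median centring, limits on the clusters tested, other variance models and leaving out each array. Paralog ranges were planned as 1 to 4, 5 to 8 and 9 to 13. The split of the last range, the correlation over groups 1 to 10, the block with clusters naming 1 gene and the lower bound were added after the data were seen. Python 3.11.15 (pandas 2.3.3, matplotlib 3.10.9) was used for tables and figures.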

Additional observations from a re-analysis of the deposited data

How the results depend on the processing

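Between E12.5 and E10.5, 0 *Hox* genes passed an adjusted p of 0.05 in limma under every alternative run, against 5 at an unadjusted p under 0.05, and likewise 0 against 2 between E11.5 and E10.5 and 0 against 1 between E12.5 and E11.5. Of all transcript clusters, 928, 465 and 212 had an unadjusted p under 0.05 in these comparisons. Leaving out each array in turn, the number of all clusters that passed was 0 to 325 between E12.5 and E10.5 and 0 to 250 between E11.5 and E10.5, the higher values both without E10.5 replicate 2. *Hox* genes at an unadjusted p under 0.05 numbered 2 to 12, 0 to 10 and 0 to 2 over these fits. The 928, 465 and 212 clusters are from the fit to all 6 arrays and are no background for these ranges. In both comparisons with E10.5 the highest *Hox* count came without E10.5 replicate 2, which left only the outlying replicate 1 array at E10.5. An unadjusted p under 0.05 was then also most frequent over all transcript clusters, so these counts do not set the *Hox* genes apart.

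The replicate numbers share nothing the labels name, and the differences between arrays of one stage correlated at 0.47, 0.46 and 0.48 between stages. A model with a replicate block gave 8 *Hox* genes an unadjusted p under 0.05 in limma between E12.5 and E10.5, beside 2098 of all 23332 transcript clusters. With the block and only clusters naming 1 gene, added after the data were seen, 27 of all clusters passed the adjustment. The *Hox* genes at an unadjusted p under 0.05 in limma were then 11, 6 and 4 in the 3 comparisons. Beside them were 1766, 919 and 443 of the 14996 clusters tested. The smallest adjusted p of a *Hox* gene was 0.0602 in limma. Between E11.5 and E10.5 median centring gave 4 *Hox* genes at an unadjusted p under 0.05 in limma, beside 482 of all transcript clusters. Between E12.5 and E11.5 quantile normalization gave 3, the 2 stages alone 2 and a fit without moderation 0. Beside them were 351, 560 and 379 of all transcript clusters. The cause was not tested.

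The median E12.5 minus E10.5 difference over all *Hox* genes was 0.17 with median centring. Over clusters above the detection limit it was 0.16 for all *Hox* genes, 0.30 for *Hoxc*, 0.82 for *Hoxd* and 0.84 for paralog groups 9 to 13 (-0.068 over all 13), where fewer genes were counted: the limit removes *Hoxc5*, *Hoxc10* and all 6 genes of groups 11 to 13, while *Hoxd9* passes it narrowly through its later stages. These medians are therefore no support for a difference. Leaving out each array gave -0.019 to 0.20 for all *Hox* genes, -0.034 to 0.45 for *Hoxd*, -0.21 to 0.27 for groups 1 to 4, 0.13 to 0.40 for groups 5 to 8 and -0.29 to 0.20 for groups 9 to 13.

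No *Hox* gene had a call, so the sign changes that follow end none. For E12.5 minus E10.5, quantile normalization gave -0.096 for *Hoxb6* and 0.076 for *Hoxb13*, and median centring gave 0.11 for *Hoxb9* and 0.065 for *Hoxb13*. For E11.5 minus E10.5, quantile normalization gave -0.084 for *Hoxa2*. Over the fits that left out 1 array, the E12.5 minus E10.5 difference was -0.23 to 0.47 for *Hoxa4*, -0.40 to 0.11 for *Hoxa5*, -0.063 to 0.87 for *Hoxa6*, -0.28 to 0.37 for *Hoxa7*, -0.49 to 0.20 for *Hoxa10*, -0.51 to 0.13 for *Hoxa11*, -0.63 to 0.70 for *Hoxb6*, -0.012 to 0.42 for *Hoxb7*, -0.19 to 0.13 for *Hoxb9* and -0.29 to 0.15 for *Hoxb13*. It was -0.59 to 0.60 for *Hoxc4*, -0.096 to 0.27 for *Hoxc5*, -0.50 to 0.14 for *Hoxc6*, -0.61 to 0.062 for *Hoxd11* and -1.17 to 0.42 for *Hoxd13*. The E11.5 minus E10.5 difference was -0.084 to 0.16 for *Hoxa2*, -0.14 to 0.39 for *Hoxb8*, -0.20 to 0.99 for *Hoxd10* and -1.52 to 0.078 for *Hoxd13*, and the E12.5 minus E11.5 difference was -0.041 to 0.17 for *Hoxa9*.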
